A study of Caenorhabditis elegans with 2 samples.

Results

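Of the 3254 nuclear peaks in the reproducible HLH-1 peak list, 851 had their summit between the starts of a pair of divergently transcribed genes. That is 26.2% of the list (95% Wilson interval 24.7% to 27.7%). A peak was taken when its summit lay outside every protein-coding gene body, had a minus-strand gene as its nearest gene on the left and a plus-strand gene on the right, and was within 2000 bp of at least 1 of both starts. Only position and annotated strand chose the peaks, and neither score nor sequence was used.

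The data are chromatin immunoprecipitation followed by sequencing (ChIP-seq) of HLH-1 in whole Caenorhabditis elegans embryos of mixed stage and mixed sex. The strain was OP64, which carries the unc-119(ed3) III mutation and wgIs64, a transgene insertion that supplies HLH-1 fused to eGFP. Both biological replicates, the 1 group analysed here, share this genotype, so there was no contrast between conditions. The labels name hlh-1 under antibody and eGFP in the description, and a control library is named but was not analysed here. Because whole embryos were used, binding in more cells and stronger binding per cell cannot be told apart. The sources used here do not name the promoter that drives the tagged gene.

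HLH-1 is the worm member of the MyoD family, basic helix-loop-helix factors that bind as dimers to the E-box, a short palindrome-like motif with the core CANNTG, and that specify body wall muscle in the embryo. In a divergent arrangement the gene on the minus strand is read leftwards and the gene on the plus strand rightwards, so a single stretch of DNA lies upstream of both. Many C. elegans messages are trans-spliced, which removes the original 5′ end, so an annotated start may lie downstream of where transcription begins.

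The sequences that follow are windows of the summit base and 50 bases to either side of it, called summit windows below, printed 5′ to 3′ on the + strand from the RefSeq WBcel235 (ce11) genome, each named for its left and right gene. Capitals mark E-boxes of 3 kinds. The first is CAGCTG, which reads the same on both strands. The second is CAACTG, which reads on the other strand as CAGTTG. The third is CACCTG, which reads on the other strand as CAGGTG. The first 4 windows belong to high-scoring members and carry the first kind, the second kind or both. They lie at chrV:18581946-18582046, chrIV:13826492-13826592, chrX:14016731-14016831 and chrX:14653665-14653765.
Y51A2D.13/txt-14: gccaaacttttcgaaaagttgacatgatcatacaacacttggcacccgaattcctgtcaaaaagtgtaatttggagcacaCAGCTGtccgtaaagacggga
Y45F10D.15/rga-5: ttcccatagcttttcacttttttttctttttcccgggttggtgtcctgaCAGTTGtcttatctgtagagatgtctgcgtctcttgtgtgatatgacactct
C04C11.25/C04C11.1: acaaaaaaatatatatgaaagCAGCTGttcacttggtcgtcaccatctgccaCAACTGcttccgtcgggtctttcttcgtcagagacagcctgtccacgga
F54E4.4/syg-2: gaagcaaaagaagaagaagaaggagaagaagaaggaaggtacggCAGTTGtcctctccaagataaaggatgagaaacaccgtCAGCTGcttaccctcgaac

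The next pair came from beside muscle genes, unc-112 at chrV:14697033-14697133 and unc-103 at chrIII:4113753-4113853, and each holds a CAACTG E-box.
unc-112/set-5: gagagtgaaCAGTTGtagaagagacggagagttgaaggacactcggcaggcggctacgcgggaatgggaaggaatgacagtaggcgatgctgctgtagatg
rei-1/unc-103: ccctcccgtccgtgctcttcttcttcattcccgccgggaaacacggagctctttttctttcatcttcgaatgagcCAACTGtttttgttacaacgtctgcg

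The last 3 hold none of these E-boxes and are shown because most members were of this kind. They are the highest-scoring member, at chrIII:12369620-12369720, the highest-scoring member beside a ribosomal protein gene, at chrII:14154505-14154605, and a member 67 bp and 78 bp from its starts, at chrIV:8432910-8433010. The hexamer GCGCGC is in the windows of his-72/rpt-6 and Y48B6A.1/rpl-43, and ACGCAG is in that of T26A8.4/pdtf-1.
his-72/rpt-6: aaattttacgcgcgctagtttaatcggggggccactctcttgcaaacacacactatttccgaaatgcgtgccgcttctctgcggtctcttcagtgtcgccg
Y48B6A.1/rpl-43: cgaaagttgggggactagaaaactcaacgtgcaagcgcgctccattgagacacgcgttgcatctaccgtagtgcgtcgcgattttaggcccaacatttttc
T26A8.4/pdtf-1: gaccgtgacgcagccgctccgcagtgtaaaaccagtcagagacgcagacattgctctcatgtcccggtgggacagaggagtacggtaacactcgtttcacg

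The reproducible list stood unevenly on both replicates. The relaxed list of replicate 1 held 28959 nuclear peaks with scores up to 165.7 and that of replicate 2 held 29975 with scores up to 806.3. The score is the authors' own value per peak, with no scale stated in the sources used here, and it serves below only to rank and describe peaks within a list. Read depth is not given in the files. Of the 3254 strongest peaks of replicate 1 alone, 51.2% had summits in gene bodies or at chromosome ends, against 32.97% in replicate 2, and the members' share was 17.1% and 26.3%.

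Member scores ran from 32.5 to 408.6. Their median was 54.3 (quartiles 41.4 and 78.1), beside 55.7 for the whole list and 56.0 for the 718 peaks that lay between genes pointing the same way and within 2000 bp of the bordering start, the class most like them. Of the 100 highest-scoring peaks of the list 21 were members, and of the 500 highest 118 were. The list's single strongest peak, at 964.9, belonged to the same-direction class.

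The rule itself limits the distance to the nearer start to 2000 bp, so the distances describe where within that limit the summits lay. The nearer start was a median of 250 bp away (quartiles 128 and 650 bp, range 1 to 1999 bp), against 412.5 bp for the same-direction peaks, whose summits had only 1 start to lie near. The further start was a median of 1537 bp away (quartiles 474.5 and 3905 bp), and the regions were a median of 1957 bp wide. The nearer start belonged to the left gene for 410 members and to the right gene for 441. For 60 members (7.05%) both starts lay within 200 bp, for 224 (26.3%) within 500 bp and for 481 (56.5%) within 2000 bp. Among the 428 members in regions of up to 2000 bp, 126 summits fell in the left of 3 equal stretches of the region, 156 in the middle and 146 in the right, so they were spread over the whole span between the genes.

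Peaks lay closely on both sides of the 2000 bp limit. Just inside it were the summits of csnk-1/lin-11 at 1999 bp with score 75.2, F38A6.4/hif-1 at 1971 bp with 92.7 and T23G5.2/saeg-2 at 1966 bp with 44.02. Just outside were lin-2/T24D3.2 at 2008 bp with 146.7, aqp-2/C01G6.2 at 2024 bp with 89.5 and tni-1/F08B12.11 at 2049 bp with 104.7. The last lies upstream of tni-1, a troponin I gene of body wall muscle. In all, 176 further summits lay between divergent genes but more than 2000 bp from both starts.

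Divergent regions held a summit more often than same-direction regions. A summit within 2000 bp of a bordering start was found in 758 of 4211 divergent regions, or 18% (95% Wilson interval 16.9% to 19.2%). The same was found in 679 of 10151 same-direction regions, or 6.69% (6.22% to 7.19%). The odds ratio was 3.06 (two-sided Fisher's exact test, p = 6.9e-86), where regions are the units and are not replicates. A divergent region has 2 starts to lie near, so the count was repeated with summits within 2000 bp of the right-hand start, an alternative chosen after seeing the data. It gave 631 of 4211 divergent regions (14.98%) and 351 of 5120 same-direction regions (6.86%), an odds ratio of 2.395. The 481 members with both starts within 2000 bp still counted whichever start they lay nearer, so this count does not remove the second start.

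The divergent share was higher at every width, with the largest gap in regions over 250 and up to 500 bp wide. There, 22.1% of divergent and 6.499% of same-direction regions held a summit. Over 1000 and up to 2000 bp the shares were 15.8% and 8.58%, and above 4000 bp 21.2% and 9.53%. Counted per length within reach of a start, divergent regions held 105.9 summits per Mb and same-direction regions 68.7, so the gap was narrower on this scale. In regions over 250 and up to 500 bp wide these densities were 601.6 and 175.0 per Mb, and above 4000 bp 65.3 and 52.5 per Mb.

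**Figure D1:**
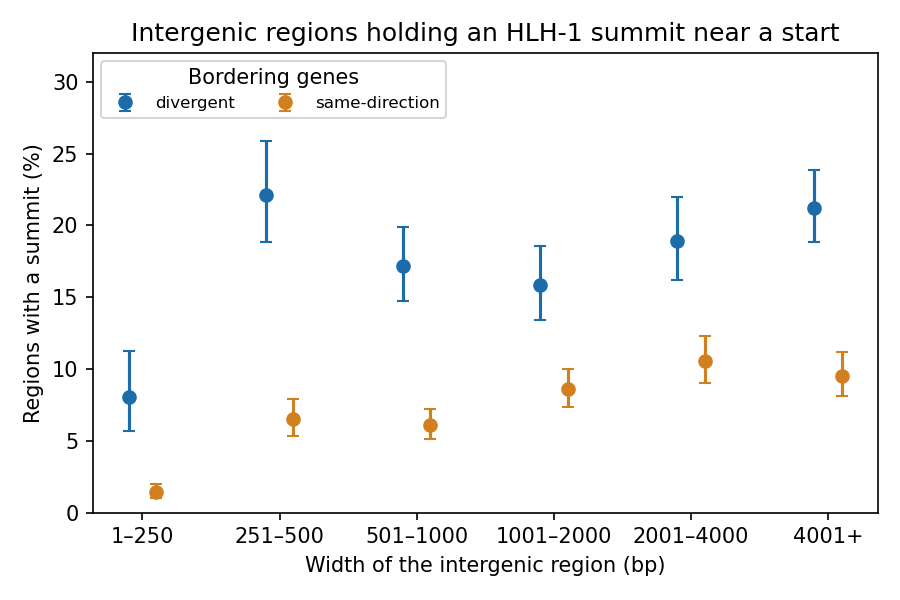
The x axis bins intergenic regions by width in bp, and the y axis gives the percentage of regions with at least 1 summit within 2000 bp of a bordering start; points are shares and bars are 95% Wilson intervals for divergent and same-direction regions. The divergent share is higher in every bin, from 8.02% against 1.43% in the shortest regions to 21.2% against 9.53% in the widest.

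Most occupied regions held a single member. There were 676 such regions, 72 with 2 members, 9 with 3 and 1 with 4, between ire-1, the endoplasmic reticulum stress sensor, and ulp-4, a SUMO protease. Neighbouring members in a region were a median of 1283 bp apart (range 200 to 8817 bp over 93 gaps). The regions with 3 were his-72/rpt-6, unc-14/taf-11.2, mrpl-28/etr-1, aqp-2/C01G6.2, pat-3/ccdc-47, anmt-2/nfm-1, F56B6.6/gyg-1, unc-54/F11C3.1 and jmjd-2/hmg-1.1. Among them are unc-54, the major body wall myosin heavy chain, and pat-3, the beta integrin of muscle attachments.

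Members were found on every chromosome, with 174 on X and 117 on V. Chromosome X also had the most peaks of the list, 773, of which 22.5% were members, against 30.5% on III. The share of divergent regions with a member was 25.6% on X and 25.05% on III, against 10.2% on V (8.52% to 12.2%).

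Chemoreceptor genes seldom had a member beside them. Of 445 chemoreceptor genes that border a divergent region, 17 (3.82%) had a member beside them, where 18% of all protein-coding genes that border such a region did (1516 of 8422).

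The strongest members lay beside genes of many kinds. The highest score, 408.6, was 620 bp from his-72, which encodes the replication-independent histone H3.3, and 786 bp from rpt-6, a proteasome ATPase subunit. It overlapped the peak ranked 4 in replicate 1 and that ranked 5 in replicate 2. The next, at 393.5, was 662 bp from txt-14 and 2212 bp from Y51A2D.13, with ranks 42 and 4. The peak of unc-14, a neuronal gene for axonal transport, reached 331.0 at 98 bp from its start and 4403 bp from taf-11.2, with ranks 97 and 10. These 3 were near the top in both replicates.

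Other strong members lay beside genes of further kinds. The mrpl-28/etr-1 peak scored 251.0 and lay 852 bp from etr-1, which encodes an RNA-binding protein known for its part in muscle formation, with ranks 53 and 39 in replicates 1 and 2. The let-268/ogr-2 peak scored 249.8 and lay 23 bp from let-268, the lysyl hydroxylase that modifies type IV collagen, with ranks 38 and 43. The syg-2 peak at 249.0, beside an immunoglobulin-family gene of synapse placement, ranked 102 and 35. The sams-4/sams-3 peak, between a pair of S-adenosylmethionine synthetase genes, scored 223.0 and lay 496 bp from sams-3 and 1792 bp from sams-4. Every member among the 20 strongest lay within the 3254 strongest peaks of both replicates. The next below them, Y69A2AR.31/Y69A2AR.1 at 195.4, did not, since its replicate 1 peak ranked 3719 and its replicate 2 peak ranked 74.

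The remaining members of the 20 strongest scored between 197.3 and 326.8. They lay between R05D7.1 and R05D7.2, Y45F10D.15 and rga-5, C04C11.25 and C04C11.1, T09B4.8 and T09B4.4, C18B12.4 and H03G16.6, ttn-1 and W06H8.2, unc-112 and set-5, prx-19 and pat-2, C01F1.6 and rml-4, sav-1 and T10H10.2, Y48B6A.5 and efhd-1, Y55D5A.3 and Y55D5A.1, and Y65A5A.1 and Y65A5A.2. The gene sav-1 is the worm Salvador, an adaptor of the Hippo pathway, and prx-19 encodes an import factor for peroxisomal membrane proteins.

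Genes of the body wall muscle apparatus often had a member beside them. Of the listed genes that border a divergent region, 13 of 17 sarcomere genes, 8 of 11 genes of muscle attachment and 6 of 10 genes of muscle excitation did. The background over all protein-coding genes that border such a region was 18%. The lists were written from general knowledge with earlier results of these data known, the counts are a description without a test, and 3 pairs of these genes (mlc-1 and mlc-2, act-1 and act-2, unc-95 and lev-10) share a region. In replicate 1 alone the counts were 12, 6 and 3, and in replicate 2 alone 15, 8 and 6, and the share over all protein-coding genes that border such a region also moved, from 12.02% (1012 of 8422) to 18.1% (1526).

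In the sarcomere, the strongest member lay beside ttn-1, a titin-like giant kinase, with score 220.9 at 1656 bp from its start and 2467 bp from W06H8.2. It ranked 62 in replicate 1 and 59 in replicate 2. Among the other listed genes, tnt-3, a troponin T gene, had a member of 191.5 at 539 bp, ranked 385 and 88. The gene myo-3, a body wall myosin heavy chain, had 1 of 95.5 at 1345 bp. The regulatory light chain genes mlc-1 and mlc-2 face each other across 2623 bp and had 2 members, of 85.9 beside mlc-1 and of 77.5 at 485 bp from mlc-2. The first of these was absent from the replicate 1 list. Thick filament genes unc-54 and unc-15 had members of 84.7 at 96 bp and 58.5 at 166 bp.

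Not every sarcomere peak was nearest to the listed gene. Of 2 members between the actin gene act-4 and M03F4.4, the stronger, at 73.9, lay 3196 bp from act-4 and 7 bp from M03F4.4. For 11 of the 13 sarcomere genes with a member, act-4 among them, at least 1 member lay nearer to that gene than to the gene across. The single act-1/act-2 member scored 49.9 and was 546 bp from act-1 and 2352 bp from act-2. The actin genes, like mlc-1 and mlc-2, are close copies of each other, and how reads that match more than 1 place were placed is not stated in the labels or files. No member lay beside dim-1, pat-10, tni-1 or unc-22, although each borders a divergent region, and the tni-1 summit is the one named above as just outside the limit.

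In the attachment group the scores of the strongest member beside each gene ran from 52.2 to 218.4. The kindlin gene unc-112 had 218.4 at 429 bp, ranked 23 in replicate 1 and 75 in replicate 2. The beta integrin gene pat-3 had 161.4 at 811 bp and the nidogen gene nid-1 120.4 at 1262 bp. The summit in the region of pat-2, the alpha integrin gene, scored 212.9 but lay 9072 bp from pat-2 and 532 bp from prx-19. The unc-95/lev-10 summit scored 91.2 and was 289 bp from unc-95, a dense body protein, and 5307 bp from lev-10, which clusters acetylcholine receptors. Beside sgn-1, a sarcoglycan gene, the strongest member scored 76.5 at 9 bp, and the members of uig-1 and pat-6, at 53.8 and 52.2, were below the list's median. No member lay beside dys-1 (dystrophin), him-4 (hemicentin) or stn-1 (syntrophin).

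Among excitation genes, unc-103, an ERG-type potassium channel, had the highest score, 168.7 at 1582 bp. The members of slo-1, a calcium-activated potassium channel, and unc-36, a calcium channel subunit, scored 62.8 and 62.0. The members of sup-9, another potassium channel, and sca-1, the calcium pump of the sarcoplasmic reticulum, scored 45.9 and 35.1, the latter near the low end of the list. No member lay beside egl-36, itr-1 or unc-38, and unc-43 had none either. Of 7 myogenic regulators that border a divergent region 2 had a member, unc-120 (the worm SRF) with 91.6 at 1137 bp and the splicing factor sup-12 with 51.98 at 521 bp. The others were fozi-1, hnd-1, mbl-1, mef-2 and tbx-35.

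Lists of other tissues had fewer genes with a member. None of 7 epidermal genes had 1 (interval up to 35.4%), and of 16 intestinal genes asp-3 alone did, at 41.1, with the summit nearer to sgca-1. Of 16 neuronal genes 4 did, unc-18, unc-44, unc-64 and unc-33, of which the unc-18 summit (113.5) was 99 bp from stn-2 and 2178 bp from unc-18. The unc-64 summit was 132 bp from cpf-2 and 8243 bp from unc-64. Of 13 germline genes mex-1 and spn-4 did. Of 6 pharyngeal genes pha-4 and marg-1 did, both with the summit over 2000 bp from their own start. Of 54 cuticle collagen genes col-108, col-38 and col-55 did. Beside the 18% of all genes, the intestinal, epidermal and collagen shares were lower (6.25%, 0% and 5.56%) and the neuronal and pharyngeal shares higher (25% and 33.3%), on few genes. Counting only members within 2000 bp of the gene's own start, 2 of 16 neuronal and 0 of 6 pharyngeal genes had 1. Over all genes that border a divergent region that count was 1254 of 8422. The intestinal count was 2 of 16 (12.5%) in replicate 1 alone, near the all-gene 12.02% there, and 0 of 16 in replicate 2 alone.

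Ribosomal protein genes often had a member beside them. Of 52 that border a divergent region, 45 (86.5%, interval 74.7% to 93.3%) had a member beside them, all within 2000 bp of their own start. In replicate 1 alone the count was 27 (51.9%) and in replicate 2 alone it was 44 (84.6%), beside the all-gene shares of 12.02% and 18.1%. In each replicate alone the sarcomere share was higher, at 70.6% and 88.2%, and in replicate 1 the attachment share was too, at 54.5%. The highest scores were 141.5 for rpl-43, 136.7 for rpl-34, 134.2 for rps-28 and 125.9 for rps-19. Those without a member included rpl-10, rpl-11.1 and rpl-17. Beside the 45 genes lay 43 members, and 26 of these 43 (60.5%) were top peaks of both replicates.

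Position was narrow beside ribosomal protein genes. The strongest summit lay a median of 298 bp from the gene's own start (quartiles 253 and 390 bp), and for 33 of 45 genes (73.3%) between 200 and 400 bp, a range chosen after the values were seen. Over all 1516 genes with a member, 19.5% had a distance in that range. The medians in replicate 1 and replicate 2 taken alone were 279 bp (27 genes) and 284.5 bp (44 genes). Their regions were narrow too, with a median width of 566 bp, beside 1957 bp over all members. Region width bounds the distance to a start, and no share matched for width was taken. For 28 of the 45 the start across the region was the nearer of both. Over the 27 muscle genes of the sarcomere, attachment and excitation lists with a member, the distance was more spread, with a median of 724 bp (range 9 to 9072 bp) and a median region width of 3274 bp.

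**Figure D2:**
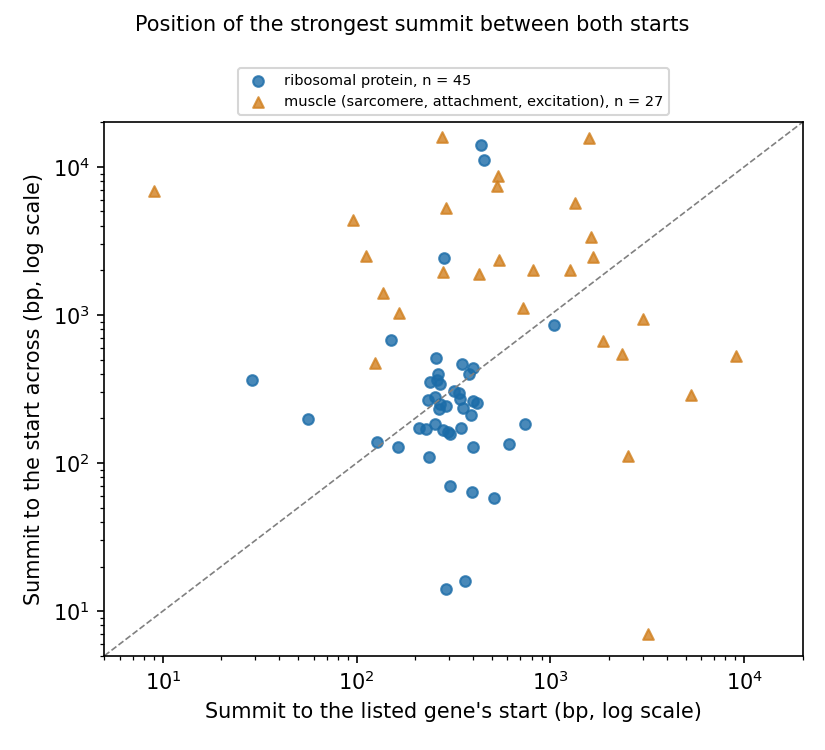
Each point is 1 gene with a member beside it; the x axis gives the distance in bp from the strongest summit to the gene's own start and the y axis that to the start across the region, both on log scales, and the dashed line marks equal distances. Ribosomal protein genes (45) gather near 300 bp on the x axis, with a median of 298 bp, while muscle genes (27) range from 9 to 9072 bp.

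Some regions had a listed gene on each side. The ribosomal protein pairs rps-10/rpl-24.1, rpl-39/rps-30 and rps-14/rpl-36 had summits of 102.7, 60.3 and 33.7, each between 233 and 399 bp from both starts. The histone pairs his-31/his-32, his-67/his-68 and his-61/his-62 had summits of 67.7, 56.2 and 37.1, all between 137 and 188 bp from either start. In all, 7 of 66 histone genes (10.6%) that border a divergent region had a member, his-72 among them. Histone genes are repeated in near-identical copies, and how reads that match several copies were placed is not stated.

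E-boxes of the 3 kinds were more frequent at member summits than beside them. CAGCTG was in the summit window of 93 members (10.9%, interval 9.01% to 13.2%) and in 17 windows (2.00%) centred 500 bp to the right, a ratio of 5.47 (exact McNemar test, two-sided, Benjamini-Hochberg adjusted over 3 motifs, p = 1.13e-13). CAACTG was in 115 (13.5%) against 44 (5.17%), a ratio of 2.61 (same exact test, adjusted p = 5.82e-09). CACCTG was in 48 (5.64%) against 21 (2.47%), a ratio of 2.29 (same exact test, adjusted p = 0.000898). Each hexamer was searched on both strands, and no match to 1 kind is also a match to another. In 59008 windows of the same length from divergent regions with no peak of the list, the shares were 1.45%, 4.49% and 2.40%.

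The comparison is between windows of unlike composition. Summit windows had a median GC content of 48.5%, the right-hand windows 35.6% and the unoccupied windows 33.8% over their whole length. Of the right-hand windows, 406 (47.7%) were centred in a protein-coding gene. The part of GC content in the ratios was not tested. With 100 bases to either side of the summit the CAGCTG ratio was 3.184, more than 1.5 times lower.

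Within the window CAGCTG and CAACTG lay nearer to the centre than CACCTG did. The CAGCTG nearest to the summit was a median of 17 bp from it, CAACTG 20 bp and CACCTG 22.5 bp. Within 25 bp of the summit lay 64 of 93, 76 of 115 and 26 of 48. In the printed windows the CAACTG of Y45F10D.15/rga-5 and F54E4.4/syg-2 is such a central match, whereas that of unc-112/set-5 is near the left edge.

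**Figure D3:**
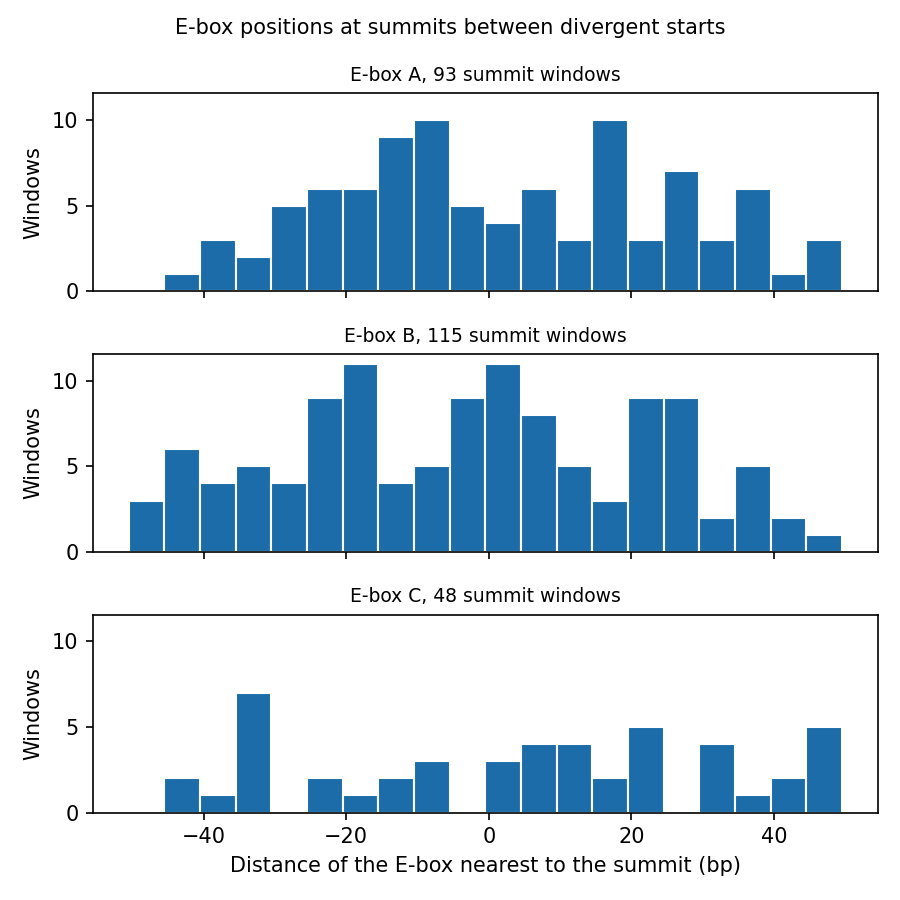
The x axis is the distance in bp from the summit to the nearest E-box and the y axis the number of member windows, with E-box A for CAGCTG, E-box B for CAACTG and E-box C for CACCTG. Within 25 bp of the summit lie 64 of 93 for A, 76 of 115 for B and 26 of 48 for C, without a comparison with even placement in the window.

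Most members had none of these E-boxes. Any of the 3 was in 235 members (27.6%, interval 24.7% to 30.7%) and 616 had none, beside 38.8% of the whole list with at least 1. For the single motifs the members' shares of 10.9%, 13.5% and 5.64% stood beside 15.2% for CAGCTG, 18% for CAACTG and 9.43% for CACCTG over all peaks of the list. Of the other E-box cores, CAAGTG was in 11.9% of summit windows against 3.17% of those to the right, and CACGTG in 2.12% against 2.47%. No CANNTG of any kind was in 394 members (46.3%).

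The class most like the members also had more of them, with 259 of 718 same-direction peaks (36.1%) holding any of the 3. CAACTG was in 136 of those peaks (18.9%), against 13.5% of members (odds ratio 0.669, two-sided Fisher's exact test adjusted over 3 motifs, p = 0.0111). In the strongest peaks of replicate 1 alone the direction turned, where the odds ratio was 1.076 with an adjusted p of 0.711. It was 0.7169 with an adjusted p of 0.219 in the 1627 highest-scoring peaks of the list. CAGCTG was in 13.1% of same-direction peaks (odds ratio 0.814) and CACCTG in 7.10% (odds ratio 0.782), and neither difference passed the same exact test (adjusted p = 0.252 for both).

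The share with an E-box went with distance from the start. Any of the 3 was in 21.7% of the 60 members with both starts within 200 bp and in 20.4% of the 294 with only the nearer start that close. It was in 23.4% of those over 200 and up to 500 bp from the nearer start, in 36.8% of those up to 1000 bp and in 44.1% of those further away. Among members above the median score the shares within 200 bp, up to 500 bp, up to 1000 bp and beyond were 29.3%, 30.3%, 45.9% and 54.5%, and among the others 13.7%, 16.7%, 24.4% and 29.7%. In the peaks of replicate 2 alone they ran 19.9%, 24.1%, 38.2% and 47.7%, and in those of replicate 1 alone 23.6%, 23.4%, 26.9% and 31.1%, a narrower span.

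For CAACTG the gap between divergent and same-direction peaks was smaller far from a start. Within 200 bp CAACTG was in 9.32% of members and 17.8% of same-direction peaks, and beyond 1000 bp in 20.4% and 19.9%. For CAGCTG there was no such order, with 8.79% and 9.14% over 200 and up to 500 bp and 11.3% and 16.1% up to 1000 bp. With the peaks grouped in these 4 ranges of distance, an alternative chosen after seeing the data, the CAACTG odds ratio was 0.734 (Mantel-Haenszel chi-square test, p = 0.0247, not adjusted). Whether either difference changes with distance was not tested.

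**Figure D4:**
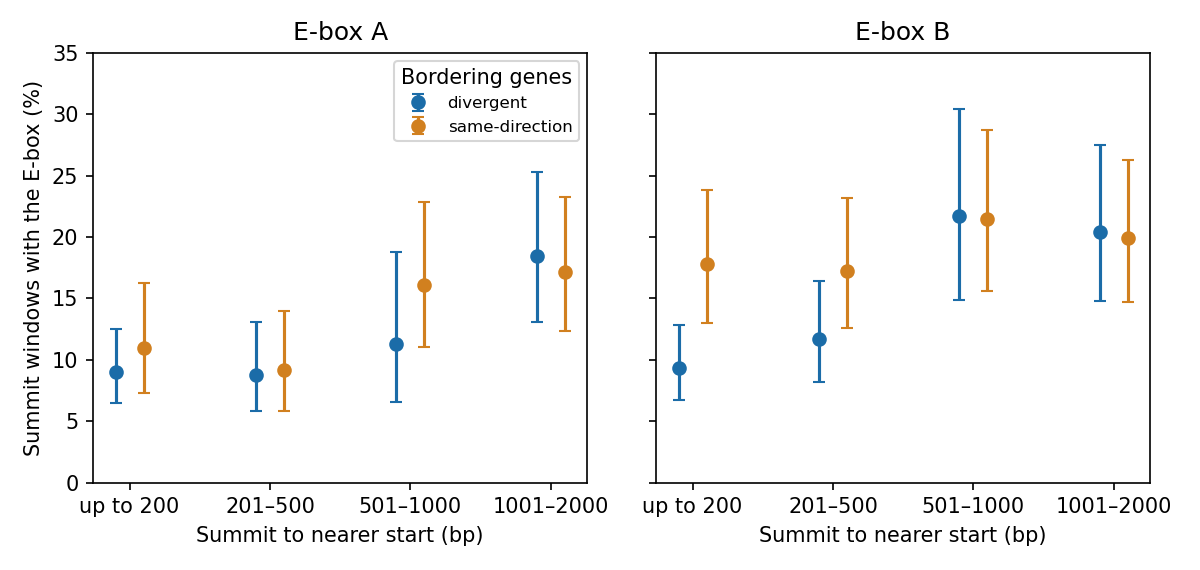
The x axis bins peaks by distance in bp from summit to nearer start and the y axis gives the percentage with an E-box in the summit window, with 95% Wilson intervals, for divergent members and same-direction peaks with E-box A for CAGCTG and E-box B for CAACTG. In members E-box B goes from 9.32% within 200 bp to 20.4% beyond 1000 bp.

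High scores went with E-boxes. Of the 213 highest-scoring members 53.1% had any of the 3, of the next 213 21.1%, of the 213 after those 21.1% and of the lowest 212 15.1%. For CAGCTG alone these shares were 23.5%, 7.04%, 10.3% and 2.83%, highest in the strongest members and lowest in the weakest, with no steady order between them. Members with an E-box had a median score of 72.8 and a median distance of 415 bp to the nearer start. Members without had a median score of 51.1 and a median distance of 227 bp.

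Other hexamers stood further above the windows to the right than the E-boxes did. Ranked by the ratio of summit to right-hand windows (0.5 added to each count) among 1552 hexamers in at least 20 summit windows, GCGCGC came first, with 77 member windows against 3. GACGCA was in 141 against 13 and ACGCAG in 159 against 15, and these hexamers share most of their letters. CAGCTG ranked 47, CAACTG 282 and CACCTG 364. Among the 2403 peaks of the list that were not members CAGCTG ranked 1 by the same measure, and GCGCGC 9. Among the 718 same-direction peaks GCGCGC ranked 2 and CAGCTG 29 of 1372 hexamers, and GCGCGC was in 7.52% of windows there against 9.05% of members.

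Several of these GC-rich hexamers had like shares in same-direction peaks. GACGCA was in 16.6% of members and 16.7% of same-direction peaks, and ACGCAG in 18.7% and 17.3%. CCGCAC was in 9.87% and 4.46%, and no test was made of hexamers chosen by rank. In unoccupied divergent windows GCGCGC was in 0.898%, GACGCA in 2.27% and ACGCAG in 2.06%, at a GC content of 33.8%. The part of GC content in these ranks was not tested.

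Few members beside ribosomal protein genes held an E-box. Of the 43 members there 5 (11.6%, interval 5.07% to 24.5%) had any of the 3, and ACGCAG was in 10. Ribosomal protein regions were narrow, with a median width of 566 bp. Among all members, any of the 3 was in 15.3% in regions over 250 and up to 500 bp wide. It was in 16.4% over 500 and up to 1000 bp and in 38.9% above 4000 bp. The shares of 15.3% and 16.4% lay inside the ribosomal interval. Whether the ribosomal share differs from that of other narrow regions was not tested. Of the 35 members beside muscle genes 11 (31.4%, interval 18.6% to 48.0%) had any, 9 of them CAACTG, with CAGCTG in 1 and CACCTG in 1. Among all members the share was 27.6%, inside the muscle interval. CAACTG was in the strongest member of tnt-3, myo-3, unc-112, pat-2, pat-3 and unc-103. For most of the muscle genes with a member, ttn-1, unc-54 and unc-15 among them, the strongest member had none of the 3 kinds.

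Members, like the whole list, overlapped more of the strongest peaks of replicate 2 than of replicate 1. Of the 851 members, 805 (94.6%) overlapped 1 of the 3254 strongest peaks of replicate 2 and 418 (49.1%) 1 of those of replicate 1. Over the whole list these shares were 93.7% and 51.5%. Overlap with both was found for 395 (46.4%, interval 43.1% to 49.8%), beside 48.2% of the whole list and 344 of 718 same-direction peaks (47.9%, odds ratio 0.942, two-sided Fisher's exact test, p = 0.577). With 50% of each peak required to overlap the odds ratio was 1.008. Since both replicates entered the list, these counts describe how far each carries it. Across the 702 members with a peak in both relaxed lists, log10 scores had a Pearson correlation of 0.506 and raw scores a Spearman correlation of 0.425, a description over peaks that share both libraries.

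**Figure D5:**
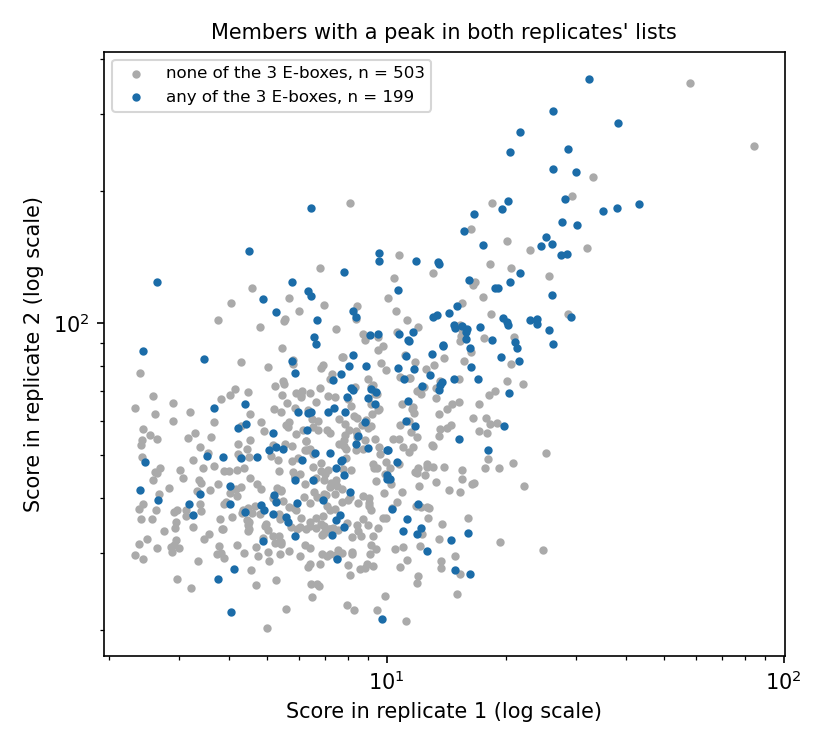
Each point is 1 of the 702 members with a peak in both relaxed lists; the x axis is the replicate 1 score and the y axis the replicate 2 score, both on log scales in the authors' units. The points rise together with wide scatter, at a Pearson correlation of 0.506 on log10 scores.

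Agreement between replicates followed score, where the score is that of the pooled replicates and so not independent of either. Among the 213 highest-scoring members 83.6% were top peaks in both replicates, then 53.5%, 35.2% and 13.2% in the groups below. It was also higher with an E-box, at 59.1% of the 235 members that had any of the 3 against 41.6% of the 616 that had none, and those groups differed in score. There were 149 members (17.5%) with no peak in the replicate 1 list at all, beside 548 of the whole list (16.8%) and 117 of the same-direction peaks (16.3%). Their median score was 41.9, and none was among the 500 strongest peaks. The strongest of them were piit-1/sas-5 at 101.3, vpr-1/cdc-7 at 90.8, F56B6.6/gyg-1 at 90.3, the mlc-1 peak of mlc-2/mlc-1 at 85.9 and nmad-1/hach-1 at 76.1.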

How the data were processed

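Peaks were called on ChIP-seq reads by the authors, and the ce11 narrowPeak lists were analysed: the optimal IDR-thresholded list (IDR is the irreproducible discovery rate), which per the deposited manifests was derived from the pooled and both replicates' relaxed lists, and those relaxed lists. The sources used here name no aligner, peak caller or threshold for the IDR. The score of each peak is the authors' deposited value, on a scale not stated there. Labels give fragments of 150 to 350 bp. Mitochondrial peaks were left out.

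Summits were placed against 19973 protein-coding genes of Ensembl release 115 (WBcel235, the assembly of ce11), with RefSeq's 19971 as an alternative. Windows of 50 bases to either side of each summit were read from the RefSeq WBcel235 sequence. Tests were Fisher's exact and exact McNemar tests with Benjamini-Hochberg adjustment over 3 E-boxes, in scipy 1.17.1, and a Mantel-Haenszel test in statsmodels 0.14.6, with numpy 2.4.6 and Python 3.11.15, and Wilson intervals (95%) cover counting error only. Scripts were tested on simulated data. Peaks and regions are not replicates, so p-values compare sets within these lists. Top peaks of a replicate are its 3254 highest-scoring.

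The members and gene lists were chosen with earlier results of these data known. Genes named are those bordering the 20 strongest members, up to 4 with the strongest member and up to 3 without in each list, pairs with at least 3 members, and pairs of listed genes. Further genes named, such as those with lower scores in the muscle lists, were chosen after their values were seen. Gene names come from the Ensembl annotation.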

Additional observations from a re-analysis of the deposited data

How the results depend on the processing

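The members' share of the list, 26.15%, was 21.48% with a limit of 1000 bp and 31.56% with no limit on distance, and 17.12% to 26.31% when the strongest peaks of a single replicate replaced the list, the lowest being replicate 1 alone. The odds ratio of divergent against same-direction regions kept its direction and its side of 0.05 in all 8 alternatives (2.352 to 3.369), as did the CAGCTG ratio of summits to flanks in all 9 (3.184 to 7.111). CAGCTG against same-direction peaks stayed below 1 and short of the threshold in all 9 (0.737 to 0.8876, adjusted p from 0.092 to 0.711). The CAACTG difference, whose alternatives were all chosen after seeing the data, was the least stable: its odds ratio ran from 0.717 to 1.076 when either replicate was left out, reversing to 1.076 with replicate 1 alone, and was 0.7169 without a call in the 1627 highest-scoring peaks; the cause was not tested. It kept its call in 7 alternatives. Overlap with top peaks of both replicates turned from 0.9418 to 1.008 with a 50% overlap (Fisher's exact test, p = 0.958), and no call was made under any of its 6 alternatives. Leaving out a replicate does not apply to that result, which needs both. No paired analysis was possible because there was 1 group. The depth of the libraries is unknown, and no control library or input was analysed here, so a region without a member may hold binding below the list's threshold.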

Other observations

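Non-coding genes also lay near members. An annotated non-coding gene was within 250 bp of 198 of the 851 summits (23.3%). Most were loci annotated as ncRNA (169 members, 19.9%, beside 18.2% of the whole list and 14.8% of same-direction peaks). A tRNA gene was within that distance of 19 members (2.23%), beside 3.07% of the whole list, and a snoRNA gene of 14 (1.65%), beside 1.97%. A piRNA locus was that near 12 members (1.41%, beside 1.38%) and a lincRNA 7. These shares lay close to those of the whole list, and no test was made.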
